A study of Rattus norvegicus with 2 samples.

Results

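The genes described here are 3 ligands and 5 receptors of the neurotrophin and GDNF systems, measured in the nucleus tractus solitarii (NTS) of female and male rats. The ligands were Bdnf, Ntf3 and Gdnf. The receptors were Ntrk2, Ntrk3, Ngfr, Gfra1 and Ret. They were chosen by name: every rat probe whose gene name in both array files was one of these 8 symbols was taken, with all its spots. This gave 14 probes on 32 spots, of 42877 rat spots on each array. All 8 genes were among the 15560 genes that were well above background on both arrays, and all 14 probes were among the 24530 such probes. The same 14 probes were found when each probe was instead assigned by its RefSeq accession where it had one. Ntrk2 probe A_43_P15837 lists no RefSeq accession and kept the symbol in the files.

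The NTS is a cell group of the dorsal medulla that receives the first central input from blood pressure, cardiac, lung and gut afferents. The female pool combined 100 ng of total RNA from each of 5 female Wistar Kyoto (WKY) rats aged 9 weeks, and the male pool combined the same amount from each of 5 male WKY rats of the same age. WKY is an inbred rat strain with normal blood pressure, widely used as the control for the spontaneously hypertensive rat, and no treatment was named for either group. The dissected block began 1.0 mm rostral of the calamus scriptorius, the caudal tip of the fourth ventricle, and ended 0.5 mm caudal of it, and 150 ng of pooled RNA was labelled with Cy3 and hybridised to 1 single-colour Agilent array per sex. With 1 pooled array per sex there was no replicate of either group. The spread between animals was therefore not measured, no test was possible, and every value below describes these 2 pools.

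Neurotrophins are secreted growth factors that signal through Trk receptor tyrosine kinases and through the shared receptor p75. BDNF acts mainly on TrkB and NT-3 mainly on TrkC, while p75 binds all neurotrophins and, with sortilin, their precursors. GDNF binds the lipid-anchored coreceptor GFRα1, which recruits the kinase RET. In vagal and baroreceptor pathways BDNF is made by sensory neurons of the nodose and petrosal ganglia that project to the NTS, and GDNF with NT-3 and BDNF supports the survival of such neurons.

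Each probe on the array is a 60-base DNA, and what a value stands for depends on where the probe lies. The 6 probes below are shown because they lie in coding sequence. The values of Gdnf, Ntf3 and Gfra1 rest on these probes alone, while those of Ntrk2, Ntrk3 and Ret also draw on other probes. They are printed 5′ to 3′ in the sense of the messenger RNA, as the array files give them, with positions in rat build rn4. Capitals mark the stop codon in Gdnf, the codon of the tyrosine that docks phospholipase C gamma in Ntrk2, and the codon of the tyrosine in the Shc docking site in Ntrk3. The Gdnf probe lies at chr2:57423957-57424016 (plus strand), and the Ntf3 probe at chr4:162436573-162436632 (minus strand). The Ntrk2 probe lies at chr17:11496095-11496154 (minus strand), and the Ntrk3 probe at chr1:134081453-134081512 (minus strand). The Ret probe lies at chr4:154468435-154468494 (minus strand). The files place the Gfra1 probe at chr1:264616404-264617205 (minus strand), an interval longer than the probe itself.
Gdnf, probe A_64_P004162: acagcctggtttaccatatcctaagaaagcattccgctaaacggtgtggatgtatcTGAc
Ntf3, probe A_44_P496447: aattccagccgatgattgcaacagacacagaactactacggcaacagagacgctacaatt
Ntrk2, probe A_64_P058883: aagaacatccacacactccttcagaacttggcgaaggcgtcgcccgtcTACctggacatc
Ntrk3, probe A_64_P127858: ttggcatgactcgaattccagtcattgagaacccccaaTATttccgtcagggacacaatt
Gfra1, probe A_44_P107308: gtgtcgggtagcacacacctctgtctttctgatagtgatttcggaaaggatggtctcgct
Ret, probe A_44_P480153: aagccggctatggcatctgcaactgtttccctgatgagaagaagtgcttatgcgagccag
The Ntrk2 docking tyrosine belongs to the kinase-bearing form of TrkB, through which this receptor passes the signal on. The Shc docking codon does not assign the Ntrk3 probe to TrkC forms with or without the kinase. The Ret probe lists accessions of both RefSeq Ret variants in the array files.

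Most of these 8 genes had close to the same level in the female and male pools. Levels are log2 processed signals minus the array's own 75th percentile (a signal of 3380 for the female and 3441 for the male array), and differences are female minus male. No gene of the 8 differed by 2-fold or more, against 83 of 15560 genes (0.533%) on the whole array, of which 17 were higher in the female (0.109%) and 66 in the male pool (0.424%). At 1.5-fold or more there was 1 of 8, Gdnf, against 384 of 15560 genes (2.47%), with 0.893% of genes higher in the female and 1.57% in the male pool. The median difference over the 8 genes was -0.0013 log2, with a range of -0.23 (Ngfr) to 0.60 (Gdnf). Over all 15560 genes the median was -0.014 log2 and the quartiles were -0.11 and 0.079. The female pool was higher for 4 genes and the male pool for the other 4. That even split became 6 and 2 when arrays were scaled to their medians or quantile normalised, and 8 and 0 when spike-in controls were set equal, a scaling that moves every gene by 0.67 log2 towards the female pool. It was 5 and 3 with a loess trend removed, and 3 and 5 without 4 bands of array rows.

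**Figure D1:**
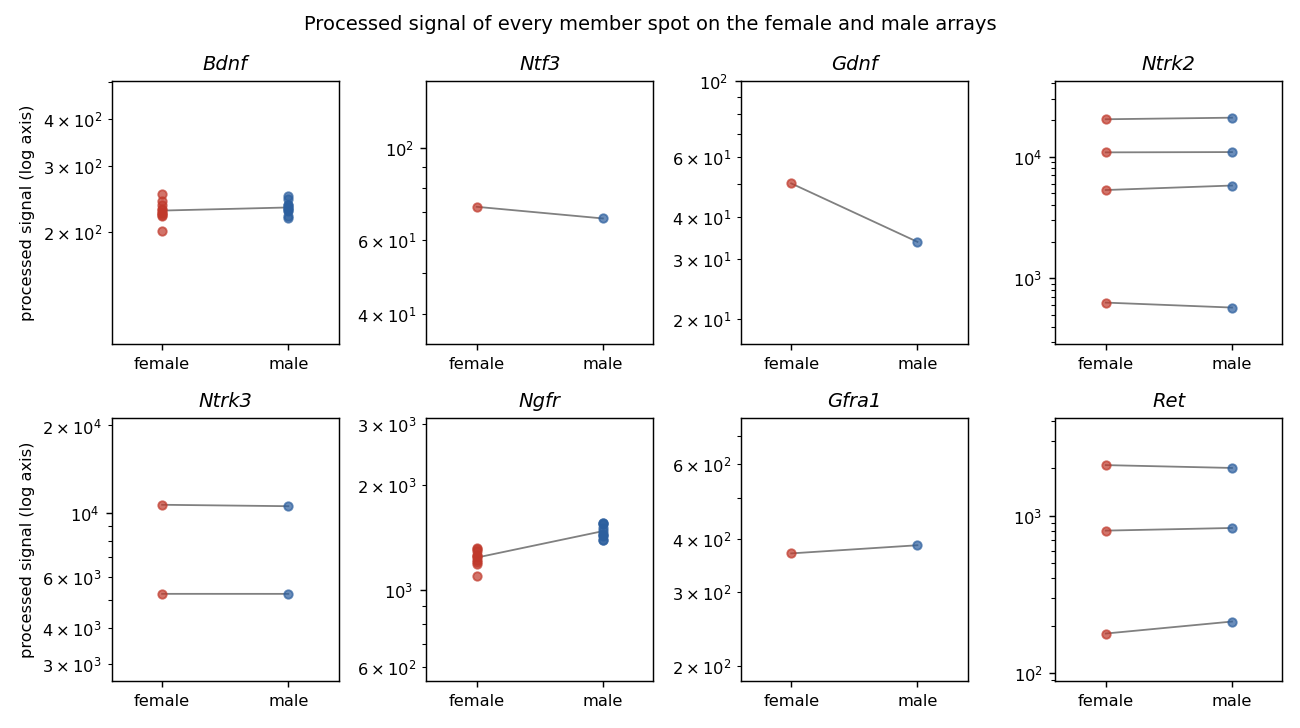
Processed signal (log axis, a separate range for each gene) of every spot of the 8 genes on the female and the male array, with a grey line joining the mean of each probe. Gdnf has 50.1 in the female and 33.7 in the male pool, and the 10 Ngfr spots have means of 1239 in the female and 1475 in the male pool. The signal of the coding Ret probe (179 in the female and 213 in the male pool) differs by about as many fold as that of Ngfr. Slopes cannot be compared between panels, because their ranges differ. The probes of the other genes, and the other Ret probes, differ by less.

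An error can be given only within an array. It came from probes printed on several spots: the SD of their spot-to-spot differences between the arrays was 0.069 log2 for probes under 4-fold below the 75th percentile or above it. It was 0.089 for probes 4- to 16-fold below, 0.15 for probes 16- to 64-fold below and 0.31 for dimmer probes. Dim probes were therefore the least precise. Of the 8 genes, 6 differed by less than the SD of their own brightness class, and the exceptions were Ngfr and Gdnf. This SD holds neither the spread between animals nor that of labelling and hybridisation.

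BDNF is the main ligand of TrkB. Its only probe, A_44_P437896, was printed on 10 spots and lists 4 RefSeq transcripts in the files, so it does not separate Bdnf transcripts that differ in their first exons. It lies at chr3_random:979381-979440 of rn4, on sequence of chromosome 3 without a fixed place. The lowest, median and highest spots had signals of 202, 227 and 252 in the female pool, against 219, 232 and 250 in the male pool. The 2 sets overlapped almost fully. The mean signal was 229 ± 13.5 in the female and 233 ± 9.94 in the male pool (SD over 10 spots of 1 array each). The difference was -0.0029 log2, with an SD of spot differences of 0.070, and 6 spots were higher in the female and 4 in the male pool. Of the genes of this brightness class, 98.5% differed by as much or more. Median scaling gave 0.032, quantile normalisation 0.043 and the removal of a loess trend 0.029, while leaving out the 4 bands of array rows described below gave -0.014. The sign for Bdnf thus changed with the processing.

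NT-3, the product of Ntf3, is the ligand of TrkC. Its single spot had a signal of 72.2 in the female and 67.7 in the male pool. The scanner software assigned these signals errors of 7.59 and 7.42. The difference, 0.12 log2, was smaller than the spot SD of 0.15, and 55.1% of genes of the class differed by as much. The 2 pools could not be told apart for this gene.

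GDNF is the ligand of GFRα1 and RET. Its single spot had a signal of 50.1 in the female and 33.7 in the male pool, with software errors of 5.77 and 5.13, and both arrays measured it well above background. The difference of 0.60 log2, or 1.51-fold towards the female pool, was the largest of the 8 genes. It lies near the lower end of what the array measured, in the dimmest class (spot SD 0.31), and the software error of this difference was 0.28. In this class 10.3% of 1790 genes differed by as much or more. With background correction by normexp the difference was 0.24 log2, and with spike-in scaling it was 1.27. Its sign was towards the female pool under every processing alternative in which it was measured, and its size rests on 1 spot per array.

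**Figure D2:**
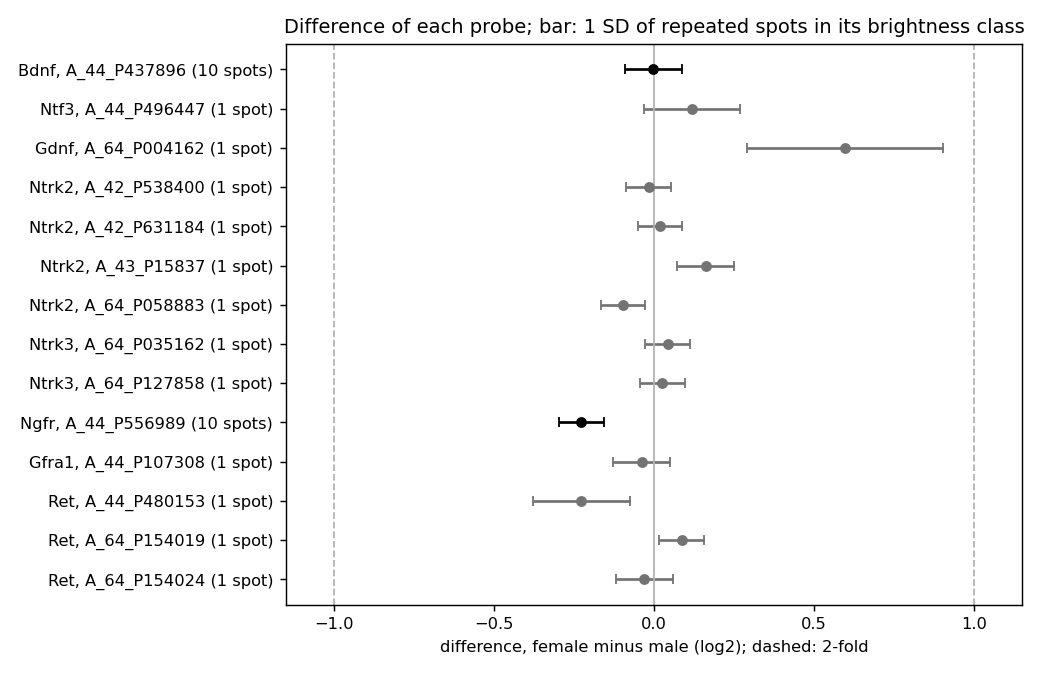
Difference, female minus male (log2), of each of the 14 probes, with a bar of 1 SD of repeated spots in its brightness class on either side (black points, 10 spots; grey points, 1 spot). Of the 14 probes, 8 lie within 1 SD of 0, Gdnf lies at 0.60 and Ngfr at -0.23, and no probe reaches the dashed 2-fold lines. The share of all probes within 1 SD of 0 was not counted. Scaling to spike-in controls would move each point by 0.67 to the right.

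TrkB, encoded by Ntrk2, was the receptor with the most probes. Its 4 single-spot probes all lie on the minus strand of chromosome 17. A_42_P538400, which the files assign to variant 1, had 20260 in the female and 20872 in the male pool, a difference of -0.017 log2. A_64_P058883, with the phospholipase C gamma docking codon shown above, had 5314 in the female and 5785 in the male pool, a difference of -0.097. These probes lie 0.912 kb apart and both were slightly brighter in the male pool, the second by more than the spot SD of 0.069. A_42_P631184, assigned to variant 2, had 10834 in the female and 10893 in the male pool, a difference of 0.018. A_43_P15837, assigned to the mRNA M55293 and 54.7 kb further along, had 632 in the female and 576 in the male pool, a difference of 0.16 where spots varied by 0.089. The 4 probes therefore fell on both sides of 0. Their range of 0.26 log2 was not unusual: 72.7% of the 33 genes with 4 counted probes had a range as large or larger. The median of the 4, taken as the value of the gene, was 0.00036 log2.

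TrkC, encoded by Ntrk3, had 2 single-spot probes 156 kb apart on the minus strand of chromosome 1. A_64_P035162, which lists all 3 RefSeq accessions given for the gene in the files, had 10638 in the female and 10518 in the male pool, a difference of 0.042 log2. A_64_P127858, with the Shc docking codon, had 5234 in the female and 5233 in the male pool, a difference of 0.026. Both differences were below the spot SD of 0.069. The 2 probes were 0.016 log2 apart, and 92.5% of 2555 genes with 2 counted probes were that far apart or farther. The gene value was 0.034 log2.

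The shared receptor p75, encoded by Ngfr, was higher in the male pool on every spot. Its probe, A_44_P556989, at chr10:84263082-84263141 (minus strand), was printed on 10 spots. The lowest, median and highest had signals of 1097, 1247 and 1322 in the female pool, against 1390, 1462 and 1559 in the male pool. No female spot reached the lowest male spot. The share of other repeated probes whose spots separate in this way was not counted. Means were 1239 ± 66.6 in the female and 1475 ± 65.5 in the male pool (SD over 10 spots of 1 array each). The difference was -0.23 log2, or 1.17-fold towards the male pool, with an SD of spot differences of 0.057 and a range over spots of -0.37 to -0.16. Of genes this bright, 7.03% differed by as much or more. For a single spot the software error of this difference was 0.20 log2, and 10 spots of 1 array share 1 pool and 1 hybridisation. The male side held at -0.24 to -0.19 log2 under every alternative except spike-in scaling, which gave 0.45. In pooled bulk tissue, fewer cells of a type and less RNA per cell cannot be told apart.

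**Figure D3:**
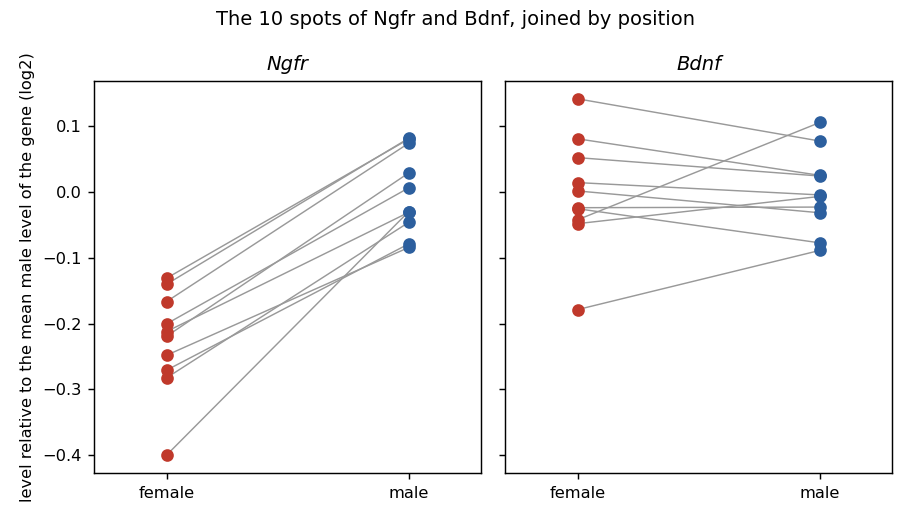
Level (log2, relative to the mean male level of the gene) of the 10 spots of Ngfr and the 10 spots of Bdnf, with lines joining the same array position on the female and the male array. All 10 Ngfr lines run higher in the male pool, while for Bdnf 6 spots are higher in the female and 4 in the male pool. Under spike-in scaling the Ngfr difference is 0.45 instead of -0.23.

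Local differences between the arrays were small around these spots. Within 5 rows and columns of each of the 32 spots, the median difference of 54 to 103 neighbouring spots lay between -0.053 and 0.046 log2. Around the 10 Ngfr spots it lay between -0.037 and 0.034, and around the Gdnf spot it was -0.014. The 4 of 20 bands of array rows with the most dim spots brighter on the male array held 6 of the 32 spots, of which 3 were Ngfr spots, and they held 20.6% of all rat spots.

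GFRα1, the coreceptor that binds GDNF, was measured by 1 spot. It had a signal of 369 in the female and 386 in the male pool. The difference of -0.038 log2 was below the spot SD of 0.089, and 79.1% of genes of the class differed by as much. Gfra1 thus did not differ beyond its error.

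RET, the kinase that GFRα1 recruits, had 3 single-spot probes on the minus strand of chromosome 4 that gave different signs. A_44_P480153, the coding probe shown above, had 179 in the female and 213 in the male pool, or -0.23 log2 where spots varied by 0.15 (SD). A_64_P154019, assigned to variant 1, had 2098 in the female and 2013 in the male pool, a difference of 0.086 against an SD of 0.069. A_64_P154024, assigned to variant 2, had 805 in the female and 836 in the male pool, a difference of -0.030. The last 2 probes lie 2.33 kb apart, and the coding probe lies a further 17.4 kb away. The brightest and the dimmest probes of Ret thus gave opposite signs, each by more than 1 spot SD. The range of 0.31 log2 compares with 31.6% of 247 genes with 3 counted probes that had a range as large. The gene value, their median, was -0.030 log2, and it was 0.086 with the brightest probe alone.

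A list of 10 other growth factor ligands was measured, with relatives of the neurotrophins and GDNF beside the neurotrophic factors Mdk, Ptn, Cntf and Lif, which belong to other families. The female pool was higher for 4 and the male pool for 6, with a median of -0.040 log2. Gdf15, a stress-induced ligand of GFRAL, had 60.7 in the female and 71.0 in the male pool (-0.20, spot SD 0.15). Nrtn, or neurturin, the ligand of GFRα2, had 2487 in the female and 2362 in the male pool (0.10).

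**Figure D4:**
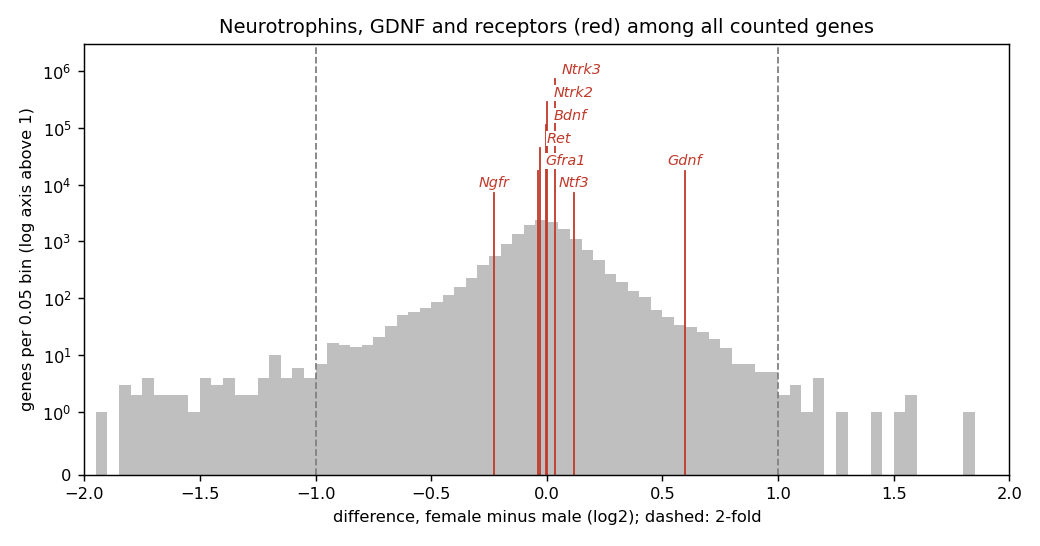
Histogram of the difference, female minus male (log2, bins of 0.05, log count axis), over the 15560 counted genes, with red lines at the 8 genes. The 7 genes beyond -2 or 2 lie outside the axis. Ngfr lies at -0.23 and Gdnf at 0.60, all 8 inside the dashed 2-fold lines, and spike-in scaling would move every value by 0.67 to the right.

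Marker lists of meninges and fibroblasts, choroid plexus and red cells ran in the same direction as Ngfr. Smaller medians on the male side were those of astrocytes (-0.070), microglia and macrophages (-0.12), motor neurons (-0.055) and general neurons (-0.023). Medians of NTS neurons, oligodendrocytes and their precursors lay on the female side. Those of visceral sensory ganglion cells (0.019) and Schwann cells (0.018) were close to 0. Across settings other than spike-in scaling, the visceral sensory median ran from -0.055 to 0.053 and that of general neurons from -0.023 to 0.012. Of 14 marker genes of meninges and fibroblasts, 12 were higher in the male pool, with a median of -0.25 log2, and their summed level was 26.4 times the 75th percentile in the female pool, against 34.5 times in the male pool. The 2 markers of highest level were Col1a2, a fibrillar collagen chain, at -0.90, and Ptgds, a prostaglandin synthase of the leptomeninges, at -0.23. For choroid plexus, 8 of 9 genes were higher in the male pool, with a median of -0.21 and sums of 13.9 in the female and 16.2 in the male pool. Its best known marker Ttr, or transthyretin, differed by -0.21. All 6 measured red cell genes were higher in the male pool, with a median of -0.53 and sums of 123 in the female and 159 in the male pool. None of these named markers was near background. With spike-in scaling the medians became 0.42 for meninges and fibroblasts, 0.46 for choroid plexus and 0.14 for red cells. The part of these tissues in the Ngfr value was not tested.

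Receptors and coreceptors outside the 8 genes showed no common direction as large. All 15 were measured, 10 higher in the female and 5 in the male pool, with a median of 0.043 log2 and none past 1.5-fold. The largest difference was Gfra3, the artemin coreceptor, with 18.9 in the female and 28.6 in the male pool (-0.57, spot SD 0.31). It was -0.14 with normexp and 0.10 with spike-in scaling. Gfra2, the neurturin coreceptor, had a median of -0.26 over 3 probes, and Sorcs2, a sortilin-family partner of p75, had -0.25 over 2 probes. Under spike-in scaling the median of this list was 0.72.

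Enzymes listed for a part in neurotrophin processing were nearly level. Of 10, 8 were measured and Mmp3 and Mmp7 were not well above background on both arrays. The female pool was higher for 3 and the male pool for 5, with a median of -0.050 log2. Plg, the precursor of plasmin, which cleaves pro-BDNF outside the cell, had 0.14. Furin, which cleaves it in the secretory pathway, had -0.096, and Pcsk2, a convertase of regulated secretion, had -0.067.

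Among the adaptors and kinases below the receptors, 42 of 45 genes were measured, 14 higher in the female and 28 in the male pool. Their median was -0.072 log2. Over all 15560 genes, 45.7% were higher in the female and 54.3% in the male pool. Mapk3, which encodes ERK1, had -0.34, with signals of 148789 in the female and 192046 in the male pool. Frs3, an adaptor that Trk receptors phosphorylate, had 191 in the female and 154 in the male pool (0.34), and Gab2, a docking protein, had 74.1 in the female and 92.2 in the male pool (-0.29). None of the 42 was past 1.5-fold. The median lay between -0.086 and -0.037 under the alternatives other than spike-in scaling, which gave 0.60.

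Genes that neuronal activity and TrkB signalling induce gave no shared direction. Of 21 genes, Bdnf among them, 19 were measured and Egr2 and Npas4 were not well above background on both arrays. The female pool was higher for 9 and the male pool for 10. Egr1, an immediate early transcription factor, had 242 in the female and 321 in the male pool (-0.38). Its relative Egr3, which BDNF induces, went the other way with 49.6 in the female and 36.0 in the male pool (0.49, spot SD 0.31). That difference was 0.13 with normexp, 0.93 when probes not well above background on both arrays were kept, and 1.16 with spike-in scaling. Spry2, a feedback inhibitor of receptor tyrosine kinase signalling, had 649 in the female and 520 in the male pool (0.35). At the 75th-percentile scaling and background filter used throughout, none passed 1.5-fold.

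**Figure D5:**
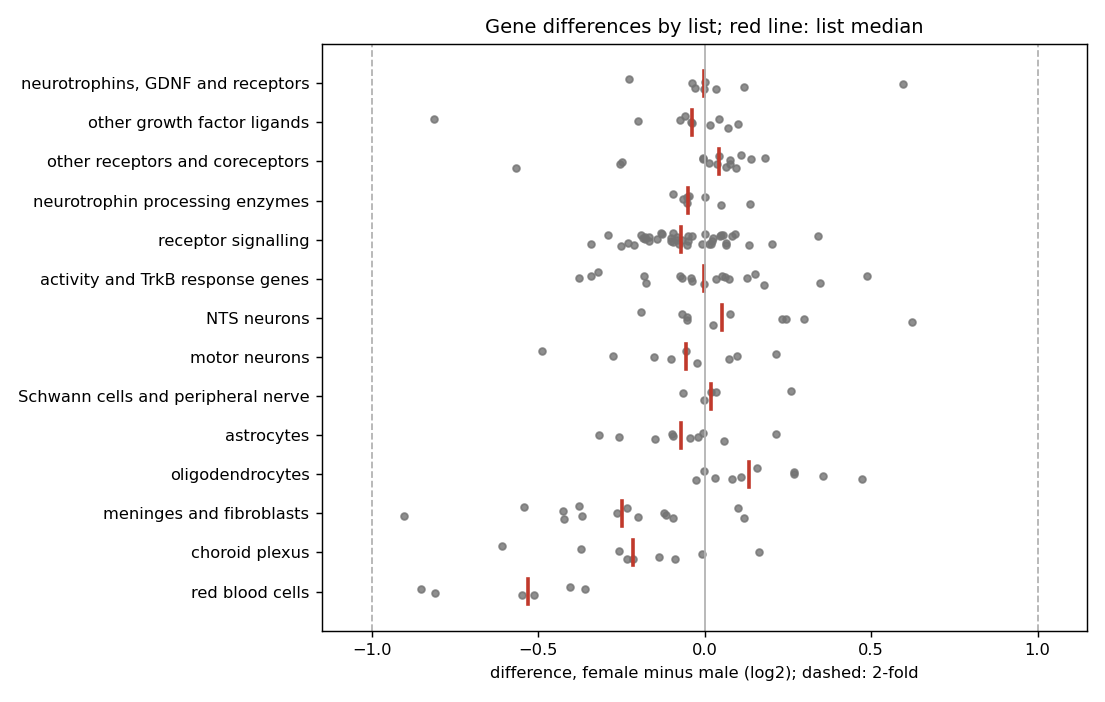
Difference, female minus male (log2), of every measured gene in the 8-gene set, 5 pathway lists and 8 of the marker lists (grey points, spread vertically for legibility), with the median of each list as a red line. The 8 genes centre on -0.0013, while the medians of meninges and fibroblasts (-0.25), choroid plexus (-0.21) and red cells (-0.53) lie on the male side, and scaling to spike-ins would move every point by 0.67 to the right.

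The tissue label was checked against marker genes. Th, the rate-limiting enzyme of catecholamine synthesis in NTS A2 neurons, had 48018 in the female and 48006 in the male pool. Slc32a1, the vesicular GABA transporter, had 49102 in the female and 40691 in the male pool (0.30 log2). All 10 NTS markers with a probe used here were measured, with a median of 0.051. Ret and Gfra1 are also known from motor neurons, and the neighbouring dorsal vagal and hypoglossal nuclei hold such cells: 9 motor neuron markers had a median of -0.055 and summed levels of 16.1 in the female and 16.8 in the male pool. Most of that sum came from Prph, a neurofilament-like protein also made by sensory neurons (-0.055), while Isl1, Mnx1, Tbx20 and Chodl were dim. Ngfr is known from Schwann cells: the 5 measured Schwann markers had a median of 0.018 and sums of 9.21 in the female and 9.19 in the male pool. Astrocytes, which carry TrkB without its kinase, had a median of -0.070 over 10 markers and sums of 80.5 in the female and 84.9 in the male pool. Oligodendrocyte markers had a median of 0.13 over 10 genes, with sums of 26.4 in the female and 25.4 in the male pool. Their precursors had a median of 0.14 over 7 genes, with sums of 8.66 in the female and 7.65 in the male pool. Medians were -0.023 for 10 general neuronal markers, 0.019 for 7 markers of visceral sensory ganglion cells and -0.12 for 10 markers of microglia and macrophages, with sums of 20.8 in the female and 21.7 in the male pool for the last. The part of these cells in the values of the 8 genes was not tested.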

How the data were processed

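Total RNA pools from the NTS, 1 per sex, were each hybridised to 1 single-colour Agilent array. Both arrays were on the same slide. The deposited scanner files hold processed signal intensity per spot, made with Agilent Feature Extraction 10.7.3.1 per the file headers, while the submitters' processing notes give version 9.1. The deposited value table holds intensity on a linear scale: each column was the processed signal times 1 constant per array, with medians of 27.3 in the female and 28.0 in the male column. Its centring and the reason for the constant are not given in the sources used here.

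Computed here: log2 processed signal minus the 75th percentile of each array over rat spots, averaged over spots. Spots flagged as outliers on 1 array or both were dropped (430, none of the 32 described), and no rat spot was saturated. Of rat spots, 87.9% on the female and 85.5% on the male array were well above background, the software's test of a spot against its local background. A probe counted if most of its spots were so on both arrays, and a gene took the median of its counted probes. Precision is limited by the number of arrays, 2. Of 30367 rat probes, 18758 were named from the reference table by accession, 1035 by another listed accession and 2871 by the symbol in the files, and 7703 had no symbol.

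No test was run. The 8 genes and the 17 other gene lists were chosen with earlier results of these data known. Named genes were the 8, the 3 largest differences of each pathway list and, from marker lists, the 2 of highest level, of which some are given here; some results under this rule are not reported here. Braf, Mapk7, Rbfox3, Foxd3, Prdm12, Hba1, Hba-a2 and Ngfrap1 (an older symbol of Bex3) were not analysed here. Tested on simulated data for 15560 genes, the calculation called all 58, 44, 50 and 48 genes changed by -2, -1.5, 1.5 and 2 log2, and 8 of 15360 unchanged genes, at 2-fold. Python 3.11.15, pandas 2.3.3, numpy 2.4.6, statsmodels 0.14.6 (loess) and R 4.3.3 with limma 3.58.1 (normexp, offset 50) were used. There were 14 alternative settings.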

Additional observations from a re-analysis of the deposited data

How the results depend on the processing

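The 14 alternatives changed scaling, background correction, filters, probe choice, position, gene names and the fold threshold. Spike-in scaling, on 234 control spots, moved every value by 0.67 log2 towards the female pool: Bdnf became 0.67, Ntf3 0.79, Gdnf 1.27, Ntrk2 0.67, Ntrk3 0.71, Ngfr 0.45, Gfra1 0.63 and Ret 0.64, and the median over the 8 genes 0.67. It put 1 of the 8 genes past 2-fold and 608 of all genes (591 higher in the female and 17 in the male pool, against 17 and 66 at the 75th percentile). Normexp gave 0.24 for Gdnf and 23 genes past 2-fold. The brightest probe gave 0.086 for Ret. Counts over all genes were 370 (212 female, 158 male) when 1 array above background was enough, 711 (436 female, 275 male) with no background filter, 10 (2 female, 8 male) with only probes brighter than the median, which left 4 of the 8 genes, and 54 (15 female, 39 male) without the 4 bands of array rows. At 1.5-fold, 1 of the 8 genes and 384 of all genes passed. The causes were not tested. Median scaling, quantile normalisation, loess, the value table, flagged spots kept and the other gene names moved no gene's difference and no median by more than the spot SD, and neither count past 2-fold by 1.5 times. The number of the 8 genes higher in the female and the male pool did move, to 6 and 2 with median scaling and quantile normalisation, 5 and 3 with loess, and 3 and 5 without the 4 bands, against 4 and 4. No paired analysis was possible because each sex has 1 array, and no array could be left out for the same reason. The number of arrays limits every value, and signals over 64-fold below the 75th percentile, Gdnf among the 8, are the least precise.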

Other observations

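Probes of a related receptor also disagreed within a gene. For Gfra2 the probe printed on 10 spots gave 0.013 log2 (3870 in the female and 3904 in the male pool), while 2 single-spot probes gave -0.31 (208 in the female and 263 in the male pool) and -0.26 (329 in the female and 399 in the male pool), so the median for the gene came from a single spot. Ntf4, the other ligand of TrkB, was close to the lower end of detection, with 17.6 in the female and 17.1 in the male pool (0.071), and was chosen after its values were seen.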
